A study of Mus musculus with 12 samples.

Results

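The early growth response (EGR) transcription factor genes Egr1, Egr2 and Egr3, the EGR corepressor genes Nab1 and Nab2, and the immediate early response genes Ier2, Ier3 and Ier5 were followed in natural killer (NK) cells of mouse lymph nodes. These 8 genes were taken by symbol from the 56748 gene IDs that each count file lists, and all 8 passed the filter on low counts. The sorted cells came from nodes of 3 groups, and poly(A) RNA of 4 libraries a group was sequenced. In the hematogenous group the nodes bore diffuse large B cell lymphoma that had disseminated through blood vessels, and in the lymphatic group lymphoma that had disseminated through the lymphatic system. The tumor-free group came from nodes of C57BL/6J mice without tumor. The labels do not name the lymphoma cells, the age of the mice or the number of animals behind a library. Replicates are numbered 1 to 4 with no word on whether a number is its own animal. A p-value here thus reflects only how much these libraries vary, and that variation could be technical.

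EGR proteins are zinc finger transcription factors whose genes are switched on within minutes of stimulation, largely through the ERK kinases and the serum response factor SRF, which binds the CArG box. NAB1 and NAB2 bind EGR factors and repress their activity, and Nab2 is itself an EGR target, so that the pair forms a feedback loop. In T cells EGR2 and EGR3 are induced by antigen receptor signalling and restrain activation. IER2 and IER5 are related nuclear proteins, and IER5 has been tied to the phosphatase PP2A and to the heat shock factor HSF1, whereas IER3 (also IEX-1) is an unrelated short-lived survival factor induced by NF-kB.

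RefSeq promoter windows on GRCm38.p6 (250 bases before to 50 after a start) were at hand for Egr2, Ier3, Ier5, Nab1 and Nab2. Both strands were searched for the CArG box, the EGR site GCGNGGGCG, the CRE TGACGTCA and the ETS site CCGGAAGT. The 250 bases upstream of a start are shown for Egr2, which held a CArG box, and for Nab1, which held EGR sites, because both genes were lower in hematogenous than in lymphatic libraries. Capitals mark the CArG box in Egr2 and the EGR sites in Nab1.
Egr2, chr10:67537619-67537868, plus strand: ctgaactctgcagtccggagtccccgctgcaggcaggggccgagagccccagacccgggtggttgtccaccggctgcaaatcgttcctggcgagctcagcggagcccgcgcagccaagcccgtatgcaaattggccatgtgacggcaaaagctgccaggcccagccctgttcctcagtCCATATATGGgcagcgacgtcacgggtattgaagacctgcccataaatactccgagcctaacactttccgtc
Nab1, chr1:52500449-52500698, minus strand: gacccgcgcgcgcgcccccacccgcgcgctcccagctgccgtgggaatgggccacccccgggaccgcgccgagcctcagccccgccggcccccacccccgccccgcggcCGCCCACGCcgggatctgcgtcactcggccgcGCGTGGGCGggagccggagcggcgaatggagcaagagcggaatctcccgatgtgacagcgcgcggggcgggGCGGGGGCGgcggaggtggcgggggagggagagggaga
The CArG box began 72 bases before the Egr2 start. Of the 5 Egr2 windows, several of which overlap, 4 held a CArG box, and 1.63% of all 32851 windows in the table held one. In Nab1 the EGR sites began 141, 109 and 38 bases before the start, the first of them on the opposite strand. EGR sites were found in 5.55% of all windows. Nab2, Ier3 and Ier5 had no match to any of the 4 motifs in their windows. These matches describe letters and do not show binding.

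Library totals ran from 6654215 to 43494812 gene counts, with 3 of the tumor-free libraries among the shallowest. Thinned to the smallest total, tumor-free replicates 1, 2 and 4 had reads on 14168 to 14747 genes, the other 9 libraries on 16846 to 21855. All 12 NK cell markers had reads in every group. Their summed level was 9565 to 11327 CPM (read counts scaled to library size with TMM factors) in hematogenous, 13213 to 16117 in lymphatic and 14615 to 16380 in tumor-free libraries. Of these markers 8 were lower in hematogenous than in tumor-free libraries. Relative to lymphatic libraries 7 of them were lower in hematogenous libraries and none higher, with a median log2 fold change of −0.62. The NK receptor gene Ncr1 lay at 552 to 863 CPM in hematogenous, 933 to 1188 in lymphatic and 1265 to 1463 in tumor-free libraries. Summed levels of 12 B cell markers lay at 99.3 to 177 CPM in hematogenous, 106 to 349 in lymphatic and 39.7 to 149 in tumor-free libraries, and 1 of them, Pax5, was higher in both models than in tumor free. The median log2 fold change of the 12 was 1.07 in lymphatic and 0.41 in hematogenous over tumor-free libraries. At an unadjusted edgeR p under 0.05, 5 were higher in lymphatic and 1 in hematogenous over tumor-free libraries, and none lower. Summed levels of 12 T cell markers lay at 1142 to 1421 CPM in hematogenous, 876 to 1226 in lymphatic and 815 to 1105 in tumor-free libraries, with 4 higher in hematogenous than in tumor-free and 4 higher than in lymphatic libraries. The T cell receptor subunit gene Cd3e lay at 82.8 to 126 CPM in hematogenous, 39.9 to 69.4 in lymphatic and 13 to 70 in tumor-free libraries. Of 13 tested myeloid markers 7 were higher in hematogenous than in tumor-free libraries, with sums of 252 to 327 and 223 to 273 CPM, and Cd14 and Clec4a3 were at 0 in tumor free. In the same comparison 2 myeloid markers were lower at an unadjusted edgeR p under 0.05. Lymphatic sums were 220 to 308 CPM, with 2 markers, Clec4a3 and Cd68, higher than in tumor free. Relative to lymphatic libraries 2 were higher in hematogenous libraries, S100a8 and S100a9. Like Egr1 and Ier5, summed levels of 8 dendritic cell markers were higher in every lymphatic library, at 598 to 1020 CPM in hematogenous, 1174 to 1565 in lymphatic and 815 to 963 in tumor-free libraries. So were those of 11 markers of stroma and endothelium, at 118 to 139 CPM in hematogenous, 162 to 174 in lymphatic and 113 to 129 in tumor-free libraries, of which the endothelial marker Pecam1 alone made up 115 to 138, 160 to 174 and 112 to 125 CPM in these groups. Only 3 of the 11 were tested, and only Pecam1 was called. The median log2 fold change of the 3 was −1.96 in lymphatic over tumor-free libraries. In hematogenous over lymphatic libraries it was 0.43, so these medians ran opposite to Pecam1. Of 5 tested dendritic cell markers only Bst2 was called higher in lymphatic over tumor-free libraries (median log2 fold change 0.47). Bst2 and Itgax were lower in hematogenous relative to lymphatic libraries, where the median of the 5 was 0.19. Erythroid and platelet markers, 8 in all, summed to 0.851 to 54.4 CPM in hematogenous libraries. Their sums were 13.2 to 38.1 CPM in lymphatic and 0 to 14.4 CPM in tumor-free libraries. The erythroid marker Hba-a2 was at 0 in tumor free and called higher in both models, and Hbb-bt in the hematogenous model. Medians of the 5 tested were 3.43 (lymphatic) and 2.89 (hematogenous) over tumor free. Reads assigned to genes made up 55.4% to 65.5% of hematogenous, 67.1% to 72.1% of lymphatic and 65.7% to 70.7% of tumor-free libraries. Reads outside features made up 17.5% to 24.6%, 13.9% to 17.4% and 11.4% to 21.1% of these, so that hematogenous and lymphatic libraries did not overlap in either share. The part of other cells and of these shares in the results below was not tested, and fewer NK cells cannot be told apart from less RNA per cell in bulk libraries.

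The members were lower in hematogenous than in lymphatic NK cell libraries almost throughout, and Egr1 and Ier5 were higher in lymphatic than in tumor-free libraries. Between the models 7 of the 8 members fell in the hematogenous libraries and none rose (edgeR quasi-likelihood test, adjusted p under 0.05 over 16016 genes), where 8.85% of all tested genes were called, 5.92% lower and 2.93% higher. For the same 7 genes all hematogenous libraries were below all lymphatic libraries, as for 11.3% of all tested genes. In lymphatic over tumor-free libraries 2 members rose and none fell, where 2.74% of all tested genes were called, 2.32% higher and 0.418% lower. In hematogenous over tumor-free libraries 1 member fell and none rose, where 16.4% of all tested genes were called, 6.87% lower and 9.52% higher. The direction of the calls over all genes depended on scaling: for hematogenous over lymphatic 33.1% were higher with TMM and 47.4% to 55.8% with the other scalings, under which 6 members fell. For lymphatic over tumor free 84.7% were higher with TMM and 73.2% to 75.5% with the others, under which 2 members rose. The median log2 fold change of the members was −0.89 for hematogenous over lymphatic, 0.69 for lymphatic over tumor free and −0.41 for hematogenous over tumor free. Over all tested genes it was −0.01, 0.08 and 0.08. The comparisons share libraries with each other, so they are not independent.

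**Figure D1:**
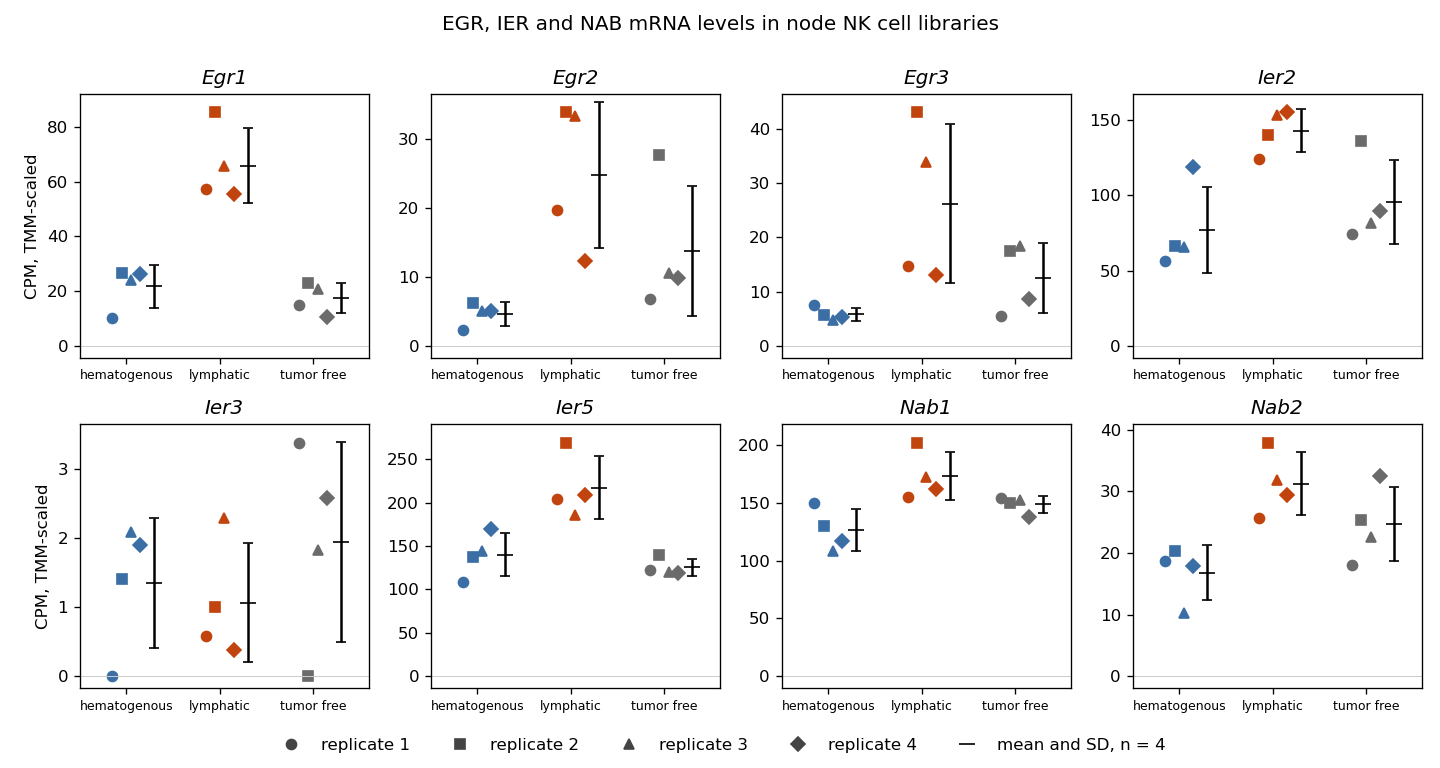
Level of each member in CPM (TMM-scaled, vertical axis) in hematogenous, lymphatic and tumor-free libraries, 1 point per library with the mean and SD (n = 4) beside them. The 4 lymphatic libraries lie above all hematogenous libraries for every member except Ier3, and above all tumor-free libraries for Egr1, Ier5 and, narrowly, Nab1. They do so for 11.3% of all tested genes against hematogenous and for 7.66% against tumor-free libraries.

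Egr1 stood at 10.3, 26.8, 24.2 and 26.2 CPM in hematogenous replicates 1 to 4, at 57.3, 85.2, 65.5 and 55.3 CPM in the lymphatic and at 15.1, 22.9, 20.8 and 10.8 CPM in the tumor-free libraries. Each lymphatic library was above every library of the other groups, which overlapped with each other. Egr1 rose 3.76-fold in lymphatic over tumor-free libraries (log2 fold change 1.91 with SE 0.278, adjusted p = 0.000341 by edgeR). It fell 3.00-fold in hematogenous relative to lymphatic libraries (log2 fold change −1.58, SE 0.272, edgeR adjusted p = 0.00193). Hematogenous against tumor-free libraries gave 0.33 (SE 0.274, edgeR adjusted p = 0.467), which did not pass.

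Egr2 had 2.27, 6.21, 5.14 and 5.04 CPM in the hematogenous libraries, 19.7, 33.9, 33.4 and 12.3 CPM in the lymphatic libraries and 6.90, 27.8, 10.6 and 9.93 CPM in the tumor-free libraries. All hematogenous libraries were below all others, narrowly so against tumor free (6.21 against 6.90 CPM), while tumor-free replicate 2 lay within the lymphatic range. For 8.01% of all tested genes all hematogenous libraries were below all tumor-free libraries. Egr2 fell 5.27-fold in hematogenous relative to lymphatic libraries (log2 fold change −2.40, SE 0.432, edgeR adjusted p = 0.00241). It was also the member that fell relative to tumor free (log2 fold change −1.54, SE 0.428, edgeR adjusted p = 0.0181). That call was lost without tumor-free replicate 2 (log2 fold change −0.95, edgeR adjusted p = 0.103) or hematogenous replicate 1 (adjusted p = 0.0547). It was lost as well with voom (log2 fold change −1.07, adjusted p = 0.223) and with the B cell marker level as a covariate (−0.96, adjusted p = 0.127). Lymphatic over tumor free, at 0.85 (SE 0.412, edgeR adjusted p = 0.369), did not pass. It was larger with the B cell covariate (1.66, adjusted p = 0.0603) and without tumor-free replicate 2 (1.40, adjusted p = 0.0732), and passed in neither.

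Egr3 had 7.56, 5.75, 4.82 and 5.33 CPM in the hematogenous libraries, 14.8, 43.0, 33.8 and 13.1 CPM in the lymphatic libraries and 5.50, 17.5, 18.4 and 8.64 CPM in the tumor-free libraries. The hematogenous values lay close together, and lymphatic replicates 2 and 3 were high for both Egr2 and Egr3. Egr3 fell 4.47-fold in hematogenous relative to lymphatic libraries (log2 fold change −2.16, SE 0.412, edgeR adjusted p = 0.00321). Neither comparison with tumor-free libraries passed, at −1.10 for hematogenous (SE 0.407, edgeR adjusted p = 0.0709) and 1.06 for lymphatic (SE 0.398, edgeR adjusted p = 0.204). The lymphatic value was 0.68 without lymphatic replicate 2 and 0.43 with voom. The hematogenous comparison passed without tumor-free replicate 1 (adjusted p = 0.0292), without lymphatic replicate 4 (adjusted p = 0.0487) and without the filter on low counts (adjusted p = 0.0134). Egr4, the remaining family gene, had 0 counts in all 12 libraries.

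**Figure D2:**
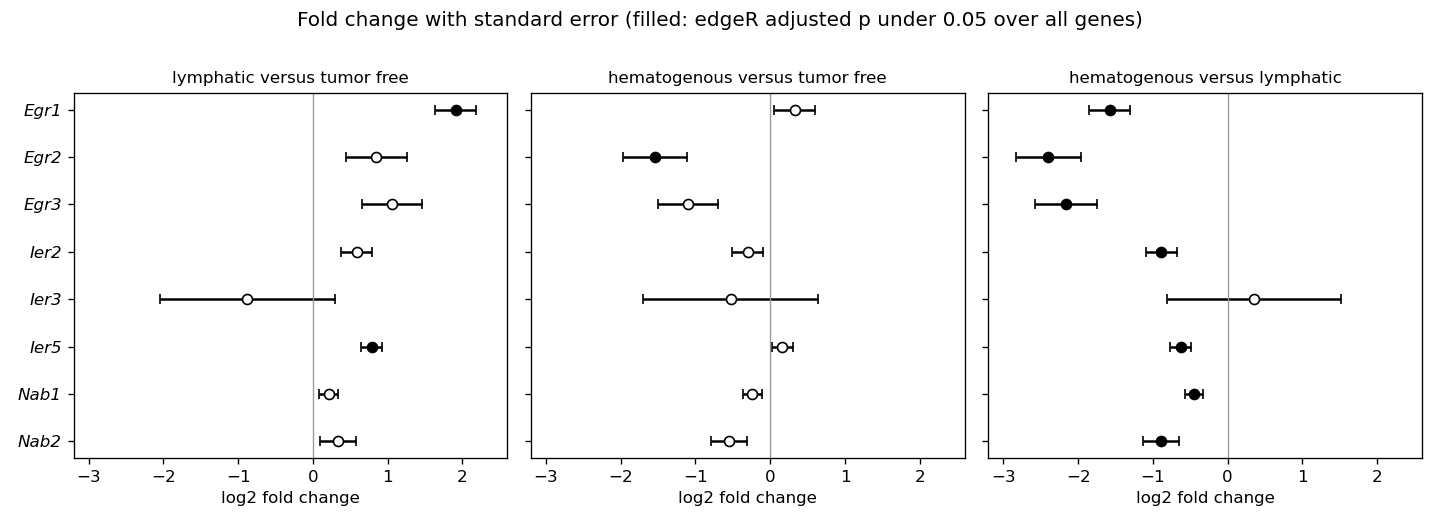
Log2 fold change (horizontal axis) of each member in the 3 comparisons, with bars of 1 standard error. Filled points passed the edgeR test over all genes, 2 for lymphatic over tumor free, 1 for hematogenous over tumor free and 7 for hematogenous over lymphatic.

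Nab1, the more abundant corepressor gene, had 150, 130, 108 and 117 CPM in the hematogenous, 155, 202, 172 and 162 CPM in the lymphatic and 154, 150, 152 and 138 CPM in the tumor-free libraries. Hematogenous replicate 1 came close to the lowest lymphatic library, and the other libraries of these groups lay further apart. Nab1 fell in hematogenous relative to lymphatic libraries (log2 fold change −0.45, SE 0.125, edgeR adjusted p = 0.0283). Under the other scalings it did not pass (log2 fold change −0.38 to −0.34, adjusted p = 0.0616 to 0.0938), nor without the filter on low counts (adjusted p = 0.0675). Without lymphatic replicate 2 or hematogenous replicate 2, 3 or 4 the adjusted p was 0.108, 0.0675, 0.16 and 0.111.

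Nab2 had 18.7, 20.3, 10.3 and 17.9 CPM in the hematogenous, 25.7, 37.9, 31.9 and 29.4 CPM in the lymphatic and 18.1, 25.4, 22.6 and 32.4 CPM in the tumor-free libraries. The tumor-free libraries spanned the gap between the models. It fell in hematogenous relative to lymphatic libraries (log2 fold change −0.89, SE 0.241, edgeR adjusted p = 0.0249). The call ended at equal depth (adjusted p = 0.0605) and without lymphatic replicate 2 or hematogenous replicate 1, 3 or 4 (adjusted p = 0.107, 0.0505, 0.118 and 0.0525). Against tumor free, neither Nab1 (hematogenous −0.24, SE 0.126; lymphatic 0.21, SE 0.125) nor Nab2 (hematogenous −0.55, SE 0.243; lymphatic 0.34, SE 0.24) passed. In GENCODE M21, Nab2 shares 1050 of its 2941 exon bases with the opposite-strand gene Gm16229, 151 with Nemp1 and 40 with Stat6, and the strand setting of the counting is not given in the sources used here.

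Ier2 had 56.3, 66.4, 65.8 and 119 CPM in the hematogenous, 124, 140, 153 and 155 CPM in the lymphatic and 74.4, 136, 81.8 and 89.4 CPM in the tumor-free libraries. Hematogenous replicate 4 and tumor-free replicate 2 stood apart from their groups on the high side. Ier2 fell 1.86-fold in hematogenous relative to lymphatic libraries (log2 fold change −0.89, SE 0.208, edgeR adjusted p = 0.0111). Without hematogenous replicate 1 or 3 this call was lost (adjusted p = 0.0578 and 0.0654). Lymphatic over tumor free was 0.59 (SE 0.208, edgeR adjusted p = 0.167) and hematogenous over tumor free −0.30 (SE 0.209, edgeR adjusted p = 0.359). Without hematogenous replicate 4 the last value was −0.59 (adjusted p = 0.0361), and without the filter on low counts the lymphatic comparison passed (adjusted p = 0.0164).

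Ier5 had 109, 137, 144 and 170 CPM in the hematogenous, 204, 269, 186 and 209 CPM in the lymphatic and 122, 140, 120 and 119 CPM in the tumor-free libraries. As with Egr1, every lymphatic library was above all others and the remaining groups overlapped. It rose 1.73-fold in lymphatic over tumor-free libraries (log2 fold change 0.79 with SE 0.142, adjusted p = 0.00262 by edgeR) and fell 1.55-fold in hematogenous relative to lymphatic libraries (−0.63, SE 0.141, edgeR adjusted p = 0.00878). Hematogenous over tumor free was 0.16 (SE 0.142, edgeR adjusted p = 0.492).

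Ier3 had few counts, with 0 to 33 counts in hematogenous, 9 to 39 in lymphatic and 0 to 43 in tumor-free libraries. Hematogenous replicate 1 and tumor-free replicate 2 had 0 counts, which allows up to 0.284 and 0.444 CPM by counting error alone. Means were 1.35 ± 0.945, 1.07 ± 0.860 and 1.95 ± 1.45 CPM in the hematogenous, lymphatic and tumor-free groups (SD, n = 4 each), and the groups overlapped. Log2 fold changes of −0.88 (lymphatic over tumor free), −0.53 (hematogenous over tumor free) and 0.35 (hematogenous over lymphatic) carried SE of 1.17, 1.17 and 1.16, and none passed (edgeR adjusted p = 0.831, 0.815 and 0.91). At equal depth the SE were 1.26, 1.22 and 1.26.

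Per kilobase of exon (GENCODE M21 lengths), the order of the levels was led by Ier2, Ier5 and Nab1 in all groups. In tumor-free libraries Ier2 averaged 62.6 ± 18.2 CPM per kb, Ier5 38.2 ± 3.01 and Nab1 36.3 ± 1.71 (SD, n = 4), and the ranges of Ier5 and Nab1 overlapped. Nab2 followed at 8.38 ± 2.03, and Egr2, Egr1 and Egr3 at 4.06 ± 2.79, 3.88 ± 1.23 and 2.83 ± 1.45 CPM per kb had ranges that overlapped. In lymphatic libraries Egr1 averaged 14.7 ± 3.05 CPM per kb and stood above Nab2 at 10.6 ± 1.74, with ranges that met, while Egr2 and Egr3 were at 7.30 ± 3.12 and 5.94 ± 3.31. In hematogenous libraries Nab2 and Egr1, at 5.72 ± 1.51 and 4.88 ± 1.74 CPM per kb, had ranges that overlapped. So had Egr2, Egr3 and Ier3, at 1.37 ± 0.495, 1.33 ± 0.271 and 1.19 ± 0.836 CPM per kb.

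Ratios within a library do not depend on scaling between libraries, and those given here were chosen after their values were seen. The Egr1 level per kb was 3.28 to 3.93 times that of Egr2 in hematogenous, 1.49 to 3.40 times in lymphatic and 0.625 to 1.66 times in tumor-free libraries. The ratio did not overlap between hematogenous and tumor-free libraries, whereas their Egr1 levels did. Egr1 over its corepressor Nab2 was 0.361 to 1.53 in hematogenous, 1.23 to 1.47 in lymphatic and 0.219 to 0.604 in tumor-free libraries. All 4 lymphatic libraries had more Egr1 than Nab2 per kb, and all 4 tumor-free libraries had less. Egr2 over Egr3 overlapped in all 3 groups, with ranges of 0.389 to 1.40 (hematogenous), 1.02 to 1.72 (lymphatic) and 0.746 to 2.07 (tumor free).

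**Figure D3:**
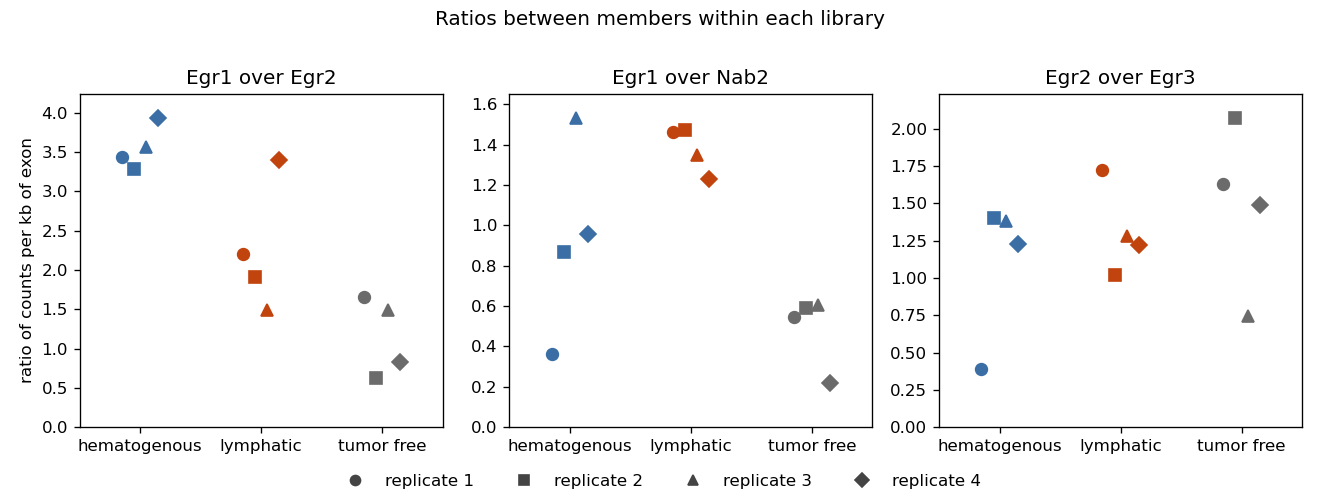
Ratio of counts per kb of exon between pairs of members (vertical axis), 1 point per library in the hematogenous, lymphatic and tumor-free groups. The ratio of Egr1 to Egr2 lies at 3.28 to 3.93 in hematogenous libraries and at 0.625 to 1.66 in tumor-free libraries.

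Across the 12 libraries, log2(CPM + 1) values of Egr1 and Ier5 moved most closely together among the members (Pearson r = 0.94, Spearman rho = 0.92), followed by Egr2 and Egr3 (r = 0.87, rho = 0.87), while Ier3 had r of −0.25 to −0.09 with every other member. The libraries fall into the 3 groups compared above, which these coefficients share. Among 9498 other genes, the closest to Egr1 was Ccrl2, a chemokine receptor-like gene (r = 0.95, Spearman rho = 0.95). Next came Gapdh, a glycolytic enzyme gene (r = 0.94, rho = 0.89), which counted only 42.5 CPM on average. Ccrl2 was also the closest to Ier5 (r = 0.97, rho = 0.99), ahead of the splicing factor gene Tra2b (r = 0.96, rho = 0.96). The closest to Ier2 were Junb, an AP-1 subunit (r = 0.98, rho = 0.97), and Irf9 (r = 0.91, rho = 0.95). For Egr2 they were Ccdc25 (r = 0.91, rho = 0.91) and the DNA ligase gene Lig1 (r = 0.91, rho = 0.92), and the closest to Egr3 was the small GTPase gene Arf3 (r = 0.96, rho = 0.95). Nab1 was closest to Taf12, a subunit of TFIID (r = 0.94, rho = 0.93), and the NK receptor gene Slamf7 (r = 0.91, rho = 0.92), and Nab2 to Samd1 (r = 0.94, rho = 0.87) and B4galt5 (r = 0.92, rho = 0.92). Ier3 was closest to Csf2ra, a subunit of the GM-CSF receptor (r = 0.88, rho = 0.94), and Tmem101 (r = 0.88, rho = 0.82), at few counts.

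Other immediate early genes, a list of 27 with 25 tested, rose in 20 cases in lymphatic over tumor-free libraries and in 15 in hematogenous over tumor-free libraries, and 13 fell in hematogenous relative to lymphatic libraries. The list's median log2 fold changes were 1.94, 0.96 and −0.91 in these comparisons. In hematogenous over tumor-free libraries Fos, an AP-1 subunit, rose by 3.74 (SE 0.415, edgeR adjusted p = 0.000148) and the phosphatase gene Dusp1 by 3.95 (SE 0.417, edgeR adjusted p = 0.000109). In the same comparison none of the 8 members was called higher by edgeR or DESeq2, where edgeR called 9.52% of all tested genes higher. None of the members had a rise at an unadjusted p under 0.05. The stress-induced phosphatase regulator Ppp1r15a rose in both models (lymphatic 3.48, SE 0.236; hematogenous 2.46, SE 0.229), and the mRNA decay factor Zfp36 fell by 0.87 in hematogenous relative to lymphatic libraries (SE 0.136). The nuclear receptor gene Nr4a2 rose by 4.06 in lymphatic over tumor-free libraries (SE 0.354), where Zfp36 rose by 1.61 (SE 0.139). Nr4a2 fell by 2.56 (SE 0.321) and Nr4a1 fell by 2.47 (SE 0.401) in hematogenous relative to lymphatic libraries.

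**Figure D4:**
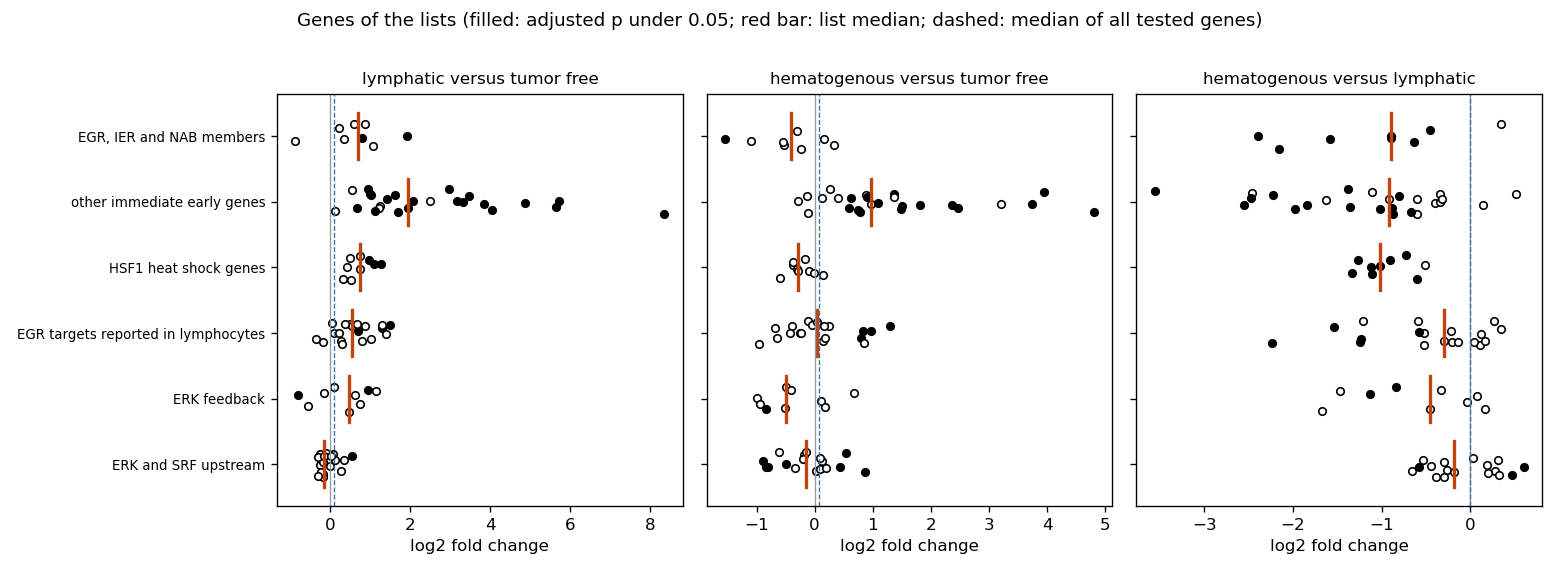
Log2 fold change (horizontal axis) of the tested genes of 6 lists in the 3 comparisons, 1 point per gene, filled where edgeR adjusted p was under 0.05. Red bars are list medians (for the EGR, IER and NAB members 0.69 in lymphatic versus tumor free, −0.41 in hematogenous versus tumor free and −0.89 in hematogenous versus lymphatic), and the dashed line is the median of all tested genes.

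Upstream of the members, in a list of 17 genes of the ERK cascade and SRF, 1 rose in lymphatic over tumor-free libraries, the ERK kinase gene Map2k1 (by 0.54 on the log2 scale, SE 0.141, edgeR adjusted p = 0.0437). In hematogenous over tumor-free libraries 3 rose and 4 fell. The kinase gene Braf rose by 0.87 (SE 0.141, edgeR adjusted p = 0.000499), and Rps6ka1, an ERK-activated kinase, fell by 0.89 (SE 0.138, edgeR adjusted p = 0.000372). Relative to lymphatic libraries 2 rose, Braf by 0.60 (SE 0.140) and the SRF partner gene Elk4 by 0.47 (SE 0.131), and Rps6ka1 fell by 0.57 (SE 0.137). The list's medians were −0.16, −0.15 and −0.18 for lymphatic over tumor free, hematogenous over tumor free and hematogenous over lymphatic. Of 9 tested ERK feedback genes, the ERK inhibitor gene Spry2 rose in lymphatic over tumor-free libraries (0.95, SE 0.131, edgeR adjusted p = 0.000228) and fell in hematogenous relative to lymphatic libraries (−0.83, SE 0.13, edgeR adjusted p = 0.000957). The ERK phosphatase gene Dusp5 fell in the second of these (−1.13, SE 0.205, edgeR adjusted p = 0.00246), and Spred2 was lower than in tumor-free libraries in both models (hematogenous −0.84, SE 0.2; lymphatic −0.80, SE 0.198).

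Of 19 tested genes reported as EGR targets in lymphocytes, mainly in T cells, 5 fell in hematogenous relative to lymphatic libraries (median −0.29). Among them were the costimulatory receptor gene Tnfrsf9 (−2.24, SE 0.405, edgeR adjusted p = 0.00599), the adhesion receptor gene Crtam (−1.23, SE 0.216, edgeR adjusted p = 0.00208) and the inhibitory receptor gene Lag3 (−1.25, SE 0.325, edgeR adjusted p = 0.0207). In lymphatic over tumor-free libraries 3 rose (median 0.55), Socs3 by 1.49 (SE 0.269), Cblb by 0.68 (SE 0.129) and Lag3 by 1.29 (SE 0.329). In hematogenous over tumor-free libraries 4 rose (median 0.04). Cblb, a ubiquitin ligase gene, rose by 0.79 (SE 0.129), Dgka, a lipid kinase gene, by 0.83 (SE 0.153) and Il2ra, a subunit of the IL-2 receptor, by 1.30 (SE 0.286).

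Of 13 subunits of NuRD, the remodelling complex that NAB2 recruits, 1 rose and 3 fell in hematogenous relative to lymphatic libraries (median −0.15), and 1 rose and 2 fell relative to tumor free (median −0.19). Mbd3 fell by 1.01 relative to tumor free (SE 0.211, edgeR adjusted p = 0.00323) and by 0.74 relative to lymphatic (SE 0.209). Rbbp7 fell by 0.54 in both (SE 0.140 and 0.139), while Gatad2b rose by 0.56 (SE 0.114) relative to tumor free and by 0.49 (SE 0.113) relative to lymphatic. No subunit was called by edgeR or DESeq2 in lymphatic over tumor-free libraries (0 at an unadjusted p under 0.05). Of 6 genes for catalytic, scaffold and B55 subunits of PP2A, the scaffold gene Ppp2r1a fell in the hematogenous model relative to lymphatic (−0.51, SE 0.131) and to tumor-free libraries (−0.50, SE 0.131). Among 9 tested HSF1-driven heat shock genes 8 fell in hematogenous relative to lymphatic libraries (median −1.01) and 3 rose in lymphatic over tumor-free libraries (median 0.73). The chaperone gene Hspa8 fell by 1.33 in the first (SE 0.174, edgeR adjusted p = 0.000221) and rose by 0.96 in the second (SE 0.173, edgeR adjusted p = 0.00262). Hsp90aa1 fell by 1.27 in the first (SE 0.229) and rose by 1.10 in the second (SE 0.228), Hsp90ab1 fell by 1.11 in the first (SE 0.213), and Hsph1 rose by 1.26 in the second (SE 0.259), all of them chaperone genes. In hematogenous over tumor-free libraries edgeR and DESeq2 called none of the 9, with 2 lower at an unadjusted p under 0.05 (median −0.28).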

How the data were processed

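Raw read counts per gene were deposited by the authors, 1 file per library, per the submitters' processing notes with HTSeq 2.0.2 after alignment by HISAT2 2.1.0 to GRCm39 (FastQC 0.11.9 and Trimmomatic 0.39 are listed too). Which annotation release and counting settings were used is not given in the sources used here. Per the labels' protocols, poly(A) RNA was read from one end over 120 bp. The 5 summary lines of each file name no gene and stayed out of all totals; reads outside features came to 11.4% to 24.6% of a library. Symbols from GENCODE M21 matched 52073 of 56748 IDs (91.8%). Differences were tested in R 4.3.3 by edgeR 4.0.16 (quasi-likelihood F test, robust, TMM scaling, default expression filter, model of group alone over 12 libraries, 16016 genes, Benjamini-Hochberg adjusted p under 0.05). CPM are TMM-scaled, and the SE is the absolute log2 fold change over the square root of F. The test was tested on simulated data, with changes set in genes of at least 5 CPM on average. It recovered 63% to 65% of 2-fold and 91% to 93% of 4-fold changes, with 5 to 12 false calls among 161 to 169. Genes were named by rule: all members, up to 3 called genes per list and comparison with the smallest adjusted p, and the 2 genes most correlated with each member (mean of at least 5 CPM). Some genes that the rule names are not reported here. Alternatives were other scalings and filters, DESeq2 1.42.0, voom in limma 3.58.1, fits of the compared groups alone, a replicate block, a B cell covariate, equal depth, a stricter threshold and leaving out each library. Same-numbered libraries did not deviate together (correlations of −0.24 to 0.16 over 12 pairs), so replicate numbers were not taken as pairs. Members and lists were chosen with earlier results of these data known. Counts have no molecular identifiers, so limits on 0 counts cover counting error only.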

Additional observations from a re-analysis of the deposited data

Results flagged for a closer look

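In 24 groups of 4 libraries (8 members in 3 groups), 3 had a library far from the other 3 by Dixon's criterion, which chance gives in about 1 group of 20. These were Egr1 at 10.3 CPM in hematogenous replicate 1, on the low side, Ier2 at 119 CPM in hematogenous replicate 4 and Ier5 at 140 CPM in tumor-free replicate 2, both on the high side. Hematogenous replicate 1 also had the lowest share of reads assigned to genes (55.4%), and tumor-free replicate 2 the smallest total; their part in these values was not tested. Without these libraries, in the same order, Egr1 in hematogenous over lymphatic stood at −1.31 (edgeR adjusted p = 0.00321), Ier2 in hematogenous over tumor free at −0.59 (edgeR adjusted p = 0.0361) and Ier5 in lymphatic over tumor free at 0.82 (edgeR adjusted p = 0.00682).

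The effects of the 2 models, each against the same tumor-free libraries, differed for 7 members. This is the contrast of hematogenous over lymphatic reported above and not a further test. In it 8.85% of all tested genes were called, 5.92% lower. The differences were −1.58 for Egr1, −2.40 for Egr2, −2.16 for Egr3, −0.89 for Ier2, −0.63 for Ier5, −0.45 for Nab1 and −0.89 for Nab2 on the log2 scale. Nab1 did not pass under the other scalings, and the calls of Ier2 and Nab2 were lost in some alternative runs.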

How the results depend on the processing

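No member changed sign in any alternative run. Of 200 values per comparison, 199 stayed on their side of the threshold for lymphatic over tumor free, 191 for hematogenous over tumor free and 182 for hematogenous over lymphatic. Egr1, Egr2, Egr3 and Ier5 were lower in hematogenous than lymphatic libraries at adjusted p under 0.05 in all alternatives, and Egr1 and Ier5 higher in lymphatic than tumor-free libraries. Members called lower in hematogenous over tumor free numbered 2 without the filter on low counts and 0 with voom, the B cell covariate or adjusted p under 0.01, which left 4 lower against lymphatic. Leaving out 1 library gave 2 members higher for lymphatic over tumor free, 0 to 2 lower for hematogenous over tumor free and 4 to 7 lower for hematogenous over lymphatic, and 0 in each other direction. Genes called numbered 861 (lymphatic over tumor free) and 2169 (hematogenous over lymphatic) with DESeq2, 2913 in the last with voom, 182 and 1168 (lymphatic and hematogenous over tumor free) with the B cell covariate, and 195, 1109 and 477 at adjusted p under 0.01. With 1 library left out they ran from 255 (without lymphatic replicate 4) to 634 for lymphatic over tumor free, 1760 to 3202 for hematogenous over tumor free and 620 to 1572 for hematogenous over lymphatic, where 620 came without lymphatic replicate 2 or hematogenous replicate 3 and 811 without hematogenous replicate 1. The B cell covariate ran from −0.245 to 0.642 in hematogenous, −0.119 to 1.53 in lymphatic and −2 to 0.463 in tumor-free libraries and so moved with the groups. With the replicate block 362, 2518 and 1439 genes were called against 439, 2625 and 1417, and no member's call changed. Library size alone gave 73.2% higher calls for lymphatic over tumor free (84.7% with TMM) and 55.8% for hematogenous over lymphatic (33.1%), where it shifted the median of all genes by 0.11. Ier3, with at most 43 counts in a library, passed in no alternative. The cause of these differences was not tested.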
